A study of Homo sapiens with 4 samples.

Results

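A set of 39 genes was read at a low level in PBS-treated HaCaT keratinocytes and was at or near 0 counts after treatment with the cytokine mix M5. The members were chosen from the read counts themselves. Each had at least 6 counts in each PBS library and at most 2 counts over the M5 libraries together. Names starting with ENSG, ZNF, KRT, KLK, ALP, SLC, ALDH, COL or WNT, names containing -AS, and SOST were left out. Of 27356 rows in the tables, 14725 had at least 6 counts in each PBS library, and 66 of those (0.448%) also met the M5 limit. Leaving out 27 of the 66 by name gave the 39 genes. Because the counts chose the genes, the drop between the groups is described below and carries no test. HaCaT is a spontaneously immortalised line of human keratinocytes, the main cells of the epidermis. The M5 group (2 libraries) received oncostatin M, TNF-α and the interleukins IL-1α, IL-17 and IL-22, each at 10 μg/L, and the PBS group (2 libraries) received phosphate-buffered saline. Cells of both groups came from the same line, were treated at a plating density of 50% and were collected after 72 h. For both M5 libraries the treatment field reads differently, as DAC (an unexplained abbreviation) at 25 μM, so their group here rests on the title. Whether the replicates were separate cultures is not stated, so p-values below measure the spread between libraries, which may be technical.

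M5 is used as a culture model of the cytokine setting of inflamed, psoriasis-like skin. Keratinocytes answer such cytokines through NF-kB and STAT3 signalling and make chemokines and antimicrobial proteins, while parts of their differentiation programme are lowered. The 39 genes belong to no single pathway. They include enzymes and secreted proteins, membrane and adhesion proteins, ion channels, lipid enzymes, chromatin and signalling proteins, and noncoding RNAs and pseudogenes.

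The M5 libraries held 18992988 and 19749612 counts and the PBS libraries 15858644 and 16051974. The M5 libraries were thus the deeper ones. A count of 3, the upper limit that a count of 0 allows, was 0.152 to 0.158 CPM (counts scaled to the library total) in a single M5 library, and the 6 counts required in a PBS library were 0.374 to 0.378 CPM. These limits cover counting error only. Keratinocyte identity was checked with 13 marker genes, none of which was at 0 in any library. Their summed level was 5429 and 5044 FPKM (fragments scaled to gene length and library total) in M5 and 3942 and 3912 FPKM in PBS. Summed levels of fibroblast, melanocyte, leukocyte, endothelial, neuron and muscle markers stayed between 0 and 5.16 FPKM in every library. Leukocyte markers, 3 of 6 of which had a row, summed to 4.71 and 5.16 FPKM in M5 and 2.37 and 1.59 FPKM in PBS. Nearly all of this was CD14, with 145 and 166 counts in M5 and 60 and 41 in PBS, while CSF1R and CD3E had at most 5 counts in any library, and their part in the results was not tested. In bulk RNA, fewer cells that express a gene and less of its RNA per cell cannot be told apart.

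All 39 genes together held 23 and 16 counts in the M5 libraries and 522 and 518 in the PBS libraries. In M5, 13 genes had 0 counts in both libraries, 13 had 1 count and 13 had 2 counts over both libraries. In PBS the sum over both libraries ranged from 12 to 178 counts with a median of 18, and 21 of the 39 genes had under 20. Among all 14725 rows with at least 6 counts in each PBS library, the median sum was 661. Per gene length, the members averaged from 0.0353 to 1.47 FPKM in PBS with a median of 0.174 FPKM, against a median of 3.95 FPKM over those 14725 rows. Only AOC1, DPPA3P6 and H2AC14 averaged at least 1 FPKM in PBS. The share of rows that met the M5 limit was lower at higher PBS sums up to 60. It was 8.06% of 273 rows with a sum of 12 to 15, 2.91% of 549 rows at 16 to 20, 1.71% of 877 rows at 21 to 30 and 0.653% of 1379 rows at 31 to 60. With the groups exchanged, 130 of 14794 rows (0.879%) had at least 6 counts in each M5 library and at most 2 over the PBS libraries, 96 of them after the same names were left out.

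**Figure D1:**
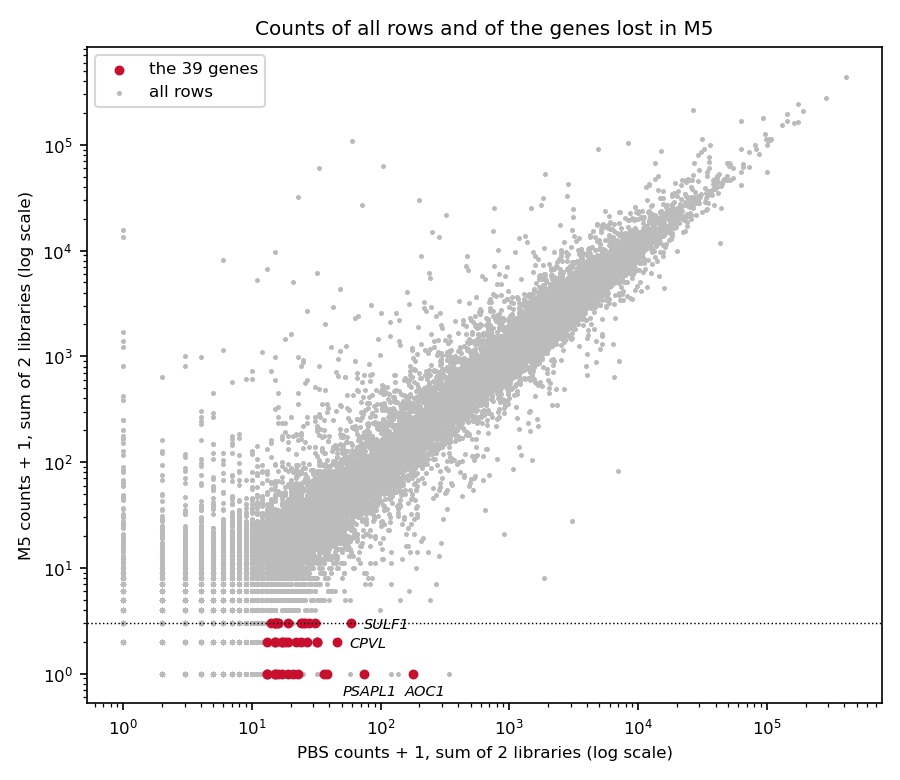
Each point is a row of the tables, with its counts plus 1 summed over the PBS libraries (x axis, log scale) and over the M5 libraries (y axis, log scale). The 39 genes (red) lie on or below the dotted line at an M5 sum of 2, and AOC1, with 178 PBS counts, lies farthest to the right among them.

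The member with the highest level in PBS, in CPM and in FPKM, was AOC1, which encodes diamine oxidase, the secreted enzyme that breaks down histamine and putrescine (ENSG00000002726, GRCh38 chromosome 7, 150824627 to 150861504). AOC1 had 0 and 0 counts in M5 and 89 and 89 counts in PBS. Against a floor of 3 counts over both M5 libraries, AOC1 was at least 63.5-fold lower in M5. This bound, like those below, takes the PBS counts as exact and leaves out their counting error. It alone held 17.1% of all PBS counts of the 39 genes, at 5.24 ± 0.0113 CPM in PBS after TMM scaling of the totals (SD, n = 2). PSAPL1, a prosaposin-like protein related to the lysosomal saposins (chromosome 4, 7430294 to 7434973), had 0 and 0 counts in M5 and 33 and 40 in PBS, at least 26.0-fold lower in M5. Neither gene had a read in either M5 library, and both stood at several times the limit of the rule in both PBS libraries.

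The promoter windows of AOC1 and PSAPL1, the members with the most counts in PBS, and of CALHM3, which shares with PSAPL1 a match to the AP-1 motif, are shown to let their base composition and motifs be seen. Each runs 5′ to 3′ on the gene's strand from 250 bases before the annotated start to 50 bases from it on (RefSeq, GRCh38.p14). Capitals mark matches on either strand to 3 motifs. The TATA box was searched as TATAAA. The GC box was searched as GGGCGG. The motif of the AP-1 factors was searched as TGANTCA, and no matches overlap.
AOC1 (chr7:150852267-150852566, plus strand): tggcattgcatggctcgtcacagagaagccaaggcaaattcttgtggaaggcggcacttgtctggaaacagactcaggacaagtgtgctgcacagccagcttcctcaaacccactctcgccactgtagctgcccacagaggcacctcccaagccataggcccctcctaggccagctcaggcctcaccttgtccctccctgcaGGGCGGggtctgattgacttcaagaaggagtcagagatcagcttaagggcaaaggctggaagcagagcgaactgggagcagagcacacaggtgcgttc
PSAPL1 (chr4:7434881-7435180, minus strand): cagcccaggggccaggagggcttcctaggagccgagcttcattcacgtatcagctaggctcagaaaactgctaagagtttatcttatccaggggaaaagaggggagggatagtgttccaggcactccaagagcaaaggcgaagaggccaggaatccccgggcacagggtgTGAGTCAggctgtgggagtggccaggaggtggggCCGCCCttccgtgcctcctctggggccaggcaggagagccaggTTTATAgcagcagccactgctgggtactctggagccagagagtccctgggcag
CALHM3 (chr10:103479191-103479490, minus strand): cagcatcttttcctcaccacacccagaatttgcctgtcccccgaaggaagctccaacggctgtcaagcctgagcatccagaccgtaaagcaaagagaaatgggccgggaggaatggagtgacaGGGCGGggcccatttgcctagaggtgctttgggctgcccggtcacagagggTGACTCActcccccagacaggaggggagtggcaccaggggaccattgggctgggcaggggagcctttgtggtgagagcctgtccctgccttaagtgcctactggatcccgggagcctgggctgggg
AOC1 has a GC box starting 48 bases before the start (position -48). PSAPL1 has an AP-1 match at -80, a GC box on the opposite strand at -46 and a TATA match on the opposite strand at -3. CALHM3 has a GC box at -127 and an AP-1 match at -76.

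RefSeq promoter windows were matched for 23 of the 39 genes. Their median GC content was 61.7%, against 65.3% over 10512 matched genes with at least 6 counts in each PBS library. A CpG ratio (observed over expected CpG dinucleotides) of at least 0.6 was found in 12 of the 23 (52.2%), against 81.9% of the 10512 expressed genes and 49.0% of all 27305 windows. AOC1, PSAPL1 and CALHM3 had ratios of 0.241, 0.224 and 0.248, while AHI1-DT and PPARGC1A had 1.11 and 1.10. RefSeq and GENCODE starts differ for some genes. The PPARGC1A window (chromosome 4, 24472856 to 24473155) and the TET1 window lie outside the GENCODE genes given below. The windows of AOC1, CCR3, TMT1A, LINC02747, C3orf18, GRIN2A and LINC01116 lie inside theirs, away from the GENCODE start. AP-1 matches stood in the windows of 4 genes (17.4%), CALHM3, LGALS7, LINC02747 and PSAPL1, against 4.77% of expressed genes and 7.76% of all windows. GC boxes stood in 65.2% of the 23, against 69.4% of expressed genes and 44.6% of all windows, and TATAAA in 8.70%, against 5.64% and 11.95%. No window of the 23 held TTCNNNGAA, a STAT palindrome found in 6.23% of expressed genes and 7.88% of all windows. These are letter matches in short windows, over few genes, and were not tested.

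**Figure D2:**
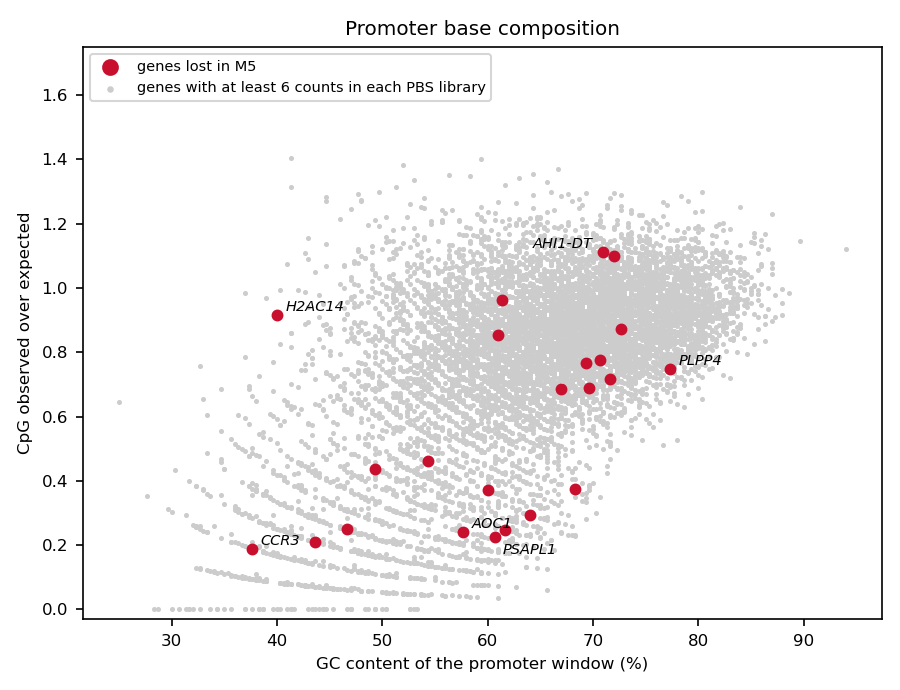
GC content (x axis, %) and CpG observed over expected (y axis) of the promoter window of each of 23 genes lost in M5 (red) and of 10512 genes with at least 6 counts in each PBS library (grey). The red points form a group at low CpG ratio, with AOC1 at 0.241 and CCR3 at 0.188, and a group at 0.685 or above.

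Other enzymes and secreted proteins had fewer PBS counts than AOC1 and PSAPL1. SULF1, an extracellular sulfatase that trims heparan sulfate (chromosome 8, 69466624 to 69660915), had 1 and 1 counts in M5 and 26 and 32 in PBS, 31.04-fold lower with an exact 95% counting interval of 8.22 to 262. CPVL, a serine carboxypeptidase (chromosome 7, 28995231 to 29195451), had 0 and 1 counts in M5 and 25 and 20 in PBS, 48.2-fold lower (8.22 to 1944). Without M5 replicate 2, CPVL is at 0 in M5 and its value is a bound of at least 7.84-fold, and without M5 replicate 1 the ratio is 24.7. Their intervals span more than an order of magnitude because the M5 value rests on 1 or 2 reads. SCG2, secretogranin II of neuroendocrine granules, had 1 and 1 counts in M5 and 9 and 9 in PBS. LGALS7, galectin-7 of stratified epithelia, had 0 and 2 counts in M5 and 7 and 7 in PBS. LGALS7 has a near-identical copy, so reads could be split or dropped at counting and its level is uncertain.

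Membrane and adhesion genes included CLDN8, a claudin of tight junctions (chromosome 21, 30214006 to 30216073). CLDN8 had 0 and 0 counts in M5 and 23 and 12 in PBS, at least 12.5-fold lower in M5. LRIG1, a leucine-rich membrane protein that dampens EGF receptor signalling and marks epidermal stem cells (chromosome 3, 66378797 to 66501263), had 1 and 0 counts in M5 and 18 and 8 in PBS, 27.8-fold lower (exact 95% interval 4.57 to 1141). LRIG1 without M5 replicate 1 is at 0 in M5 and at least 4.75-fold lower, and the ratio is 13.6 without M5 replicate 2 and 17.1 without PBS replicate 1. The PBS libraries of both genes lay apart, and LRIG1 had the largest ratio between PBS libraries of all 39 genes, 2.26 in CPM. CCR3, the eotaxin receptor best known from eosinophils, had 0 and 0 counts in M5 and 12 and 10 in PBS. TMEM37, a relative of calcium channel γ subunits, had 1 and 1 counts in M5 and 12 and 12 in PBS. NEGR1, a neuronal adhesion protein of the IgLON family, was at 0 and 0 in M5 and at 6 and 10 in PBS. C3orf18 had 1 and 0 counts in M5 and 8 and 10 in PBS, and SMIM11, a small membrane protein, 1 and 0 in M5 and 7 and 7 in PBS.

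Among channel and calcium-store genes, CASQ2 had the most counts in PBS, though per length CALHM3 was higher (0.284 FPKM, against 0.139 FPKM for CASQ2). CASQ2, the cardiac calsequestrin that stores calcium in the sarcoplasmic reticulum (chromosome 1, 115700007 to 115768781), had 0 and 0 counts in M5 and 12 and 25 in PBS, at least 13.2-fold lower in M5. DES, the muscle marker with a row, had at most 1 count in any library. GRIN2A, an NMDA glutamate receptor subunit (chromosome 16, 9753404 to 10182754), had 1 and 0 counts in M5 and 13 and 8 in PBS, the lowest PBS level per length of all 39 genes at 0.0353 FPKM. KCNH4, a voltage-gated potassium channel, had 0 and 1 counts in M5 and 6 and 10 in PBS. CALHM3, which forms an ATP-releasing channel in taste cells, had 0 and 0 in M5 and 7 and 8 in PBS. CATSPERD, an accessory subunit of the sperm calcium channel, had 2 and 0 in M5 and 7 and 8 in PBS, and TSPOAP1, which binds presynaptic calcium channels, 0 and 0 in M5 and 8 and 6 in PBS.

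All 4 lipid genes kept 1 or 2 counts in M5. SOAT2, which esterifies cholesterol (chromosome 12, 53103518 to 53124538), had 1 and 0 counts in M5 and 12 and 19 in PBS, 33.2-fold lower (exact 95% interval 5.53 to 1352). SOAT2 without M5 replicate 1 is at 0 in M5 and at least 5.66-fold lower, and without M5 replicate 2 the ratio is 16.2. TMT1A, a thiol methyltransferase of lipid droplets and the endoplasmic reticulum, had 0 and 2 in M5 and 14 and 11 in PBS. PLPP4, a phospholipid phosphatase, had 1 and 0 in M5 and 10 and 13 in PBS. ABCA4, known as the retinoid transporter of photoreceptors, had 1 and 0 in M5 and 8 and 9 in PBS.

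Of the chromatin, transcription and signalling genes, TET1 had the most reads. TET1, which oxidises 5-methylcytosine in DNA (chromosome 10, 68560656 to 68694482), had 1 and 1 counts in M5 and 13 and 17 in PBS, 16.1-fold lower (exact 95% interval 4.07 to 139). PPARGC1A, the coactivator of mitochondrial biogenesis (chromosome 4, 23755041 to 23904089), had 0 and 0 in M5 and 9 and 9 in PBS, at least 6.42-fold lower in M5. H2AC14, a histone H2A gene whose class usually lacks a poly(A) tail, had 0 and 1 in M5 and 8 and 8 in PBS. The most abundant other gene of the H2AC series, H2AC6, had 1121 and 1151 counts in M5 and 397 and 491 in PBS, and reads shared between such copies make the level of H2AC14 uncertain. BLID, a BH3-like cell death protein, had 1 and 0 in M5 and 8 and 6 in PBS. It lies within MIR100HG on the same strand, so the level of BLID is uncertain. MIR100HG had 246 and 281 counts in M5 and 317 and 309 in PBS. PTPN22, a phosphatase of lymphocyte receptor signalling, had 0 and 2 in M5 and 7 and 6 in PBS. MAP3K15, a stress kinase of the MAP kinase cascade, had 1 and 0 in M5 and 6 and 6 in PBS.

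Noncoding RNAs and pseudogenes made up 10 of the 39, with PBS sums of 12 to 31 counts. LINC02747 had the most PBS counts, with 1 and 0 counts in M5 and 18 and 13 in PBS. AHI1-DT, which starts beside AHI1 and runs away from it, had 2 and 0 in M5 and 15 and 12 in PBS. THAP12P8, a processed copy of THAP12, had 0 and 2 in M5 and 12 and 11 in PBS, and DPPA3P6 had 0 and 0 in M5 and 11 and 9 in PBS. THAP12 itself had 1873 and 2389 counts in M5 and 2345 and 2495 in PBS, and reads shared with it make the level of the copy uncertain. The other 6 were LINC01116, LINC02938, LINC01023, FAM66B, BMS1P1 and OR7E91P, each with 6 to 9 counts in each PBS library. BMS1P1 shares its symbol with a second, longer row that had 86 and 92 counts in M5 and 106 and 121 in PBS, and FAM66B belongs to a family of near copies, so both levels are uncertain.

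**Figure D3:**
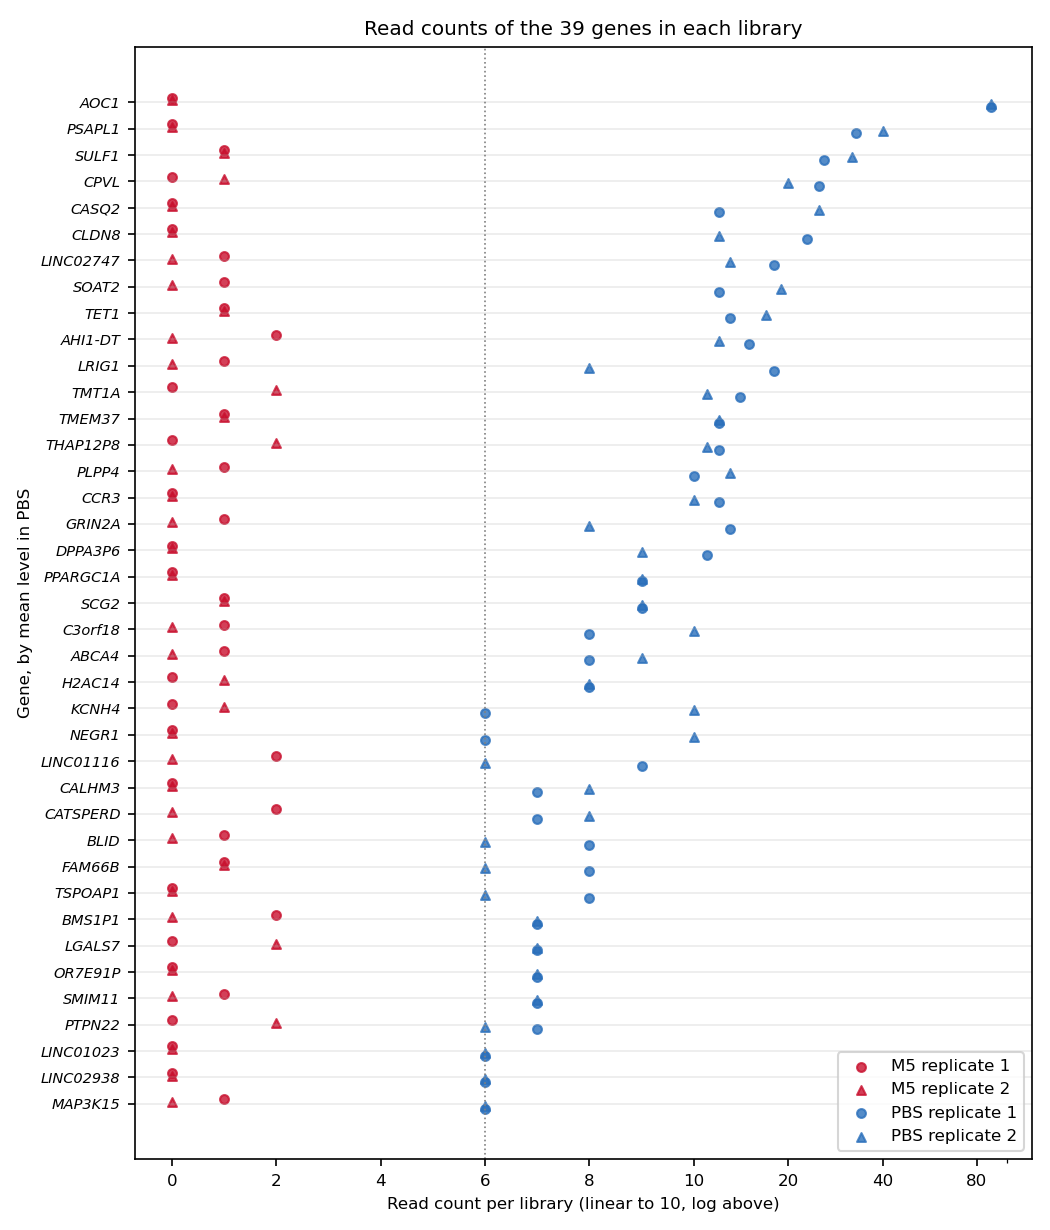
Read counts (x axis, linear to 10 and log above) of each of the 39 genes in M5 replicates 1 and 2 (red) and PBS replicates 1 and 2 (blue), ordered by the mean level in PBS. Every M5 point lies at 2 or below and every PBS point at 6 or above (dotted line), which the rule required, and most genes sit near 6 to 13.

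The size of the drop was known only within wide counting limits. For the 13 genes at 0 in M5, the lower bound ranged from 4.28-fold to 63.5-fold with a median of 6.42. For the other 26, the ratio ranged from 6.96-fold for PTPN22 to 48.2-fold for CPVL, with a median of 14.99. Since a gene at 0 has a bound and a gene at 1 or 2 counts has a ratio, the medians cannot be ranked against each other. Leaving out 1 M5 library lowers each bound, as for AOC1, which is at least 32.5-fold lower without M5 replicate 1 and at least 31-fold lower without M5 replicate 2. A gene whose only M5 counts are in the library left out then has a bound in place of a ratio. Between the PBS libraries, 31 of 39 genes agreed within 1.5-fold in CPM, and CASQ2, CLDN8 and LRIG1 differed by over 1.9-fold.

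**Figure D4:**
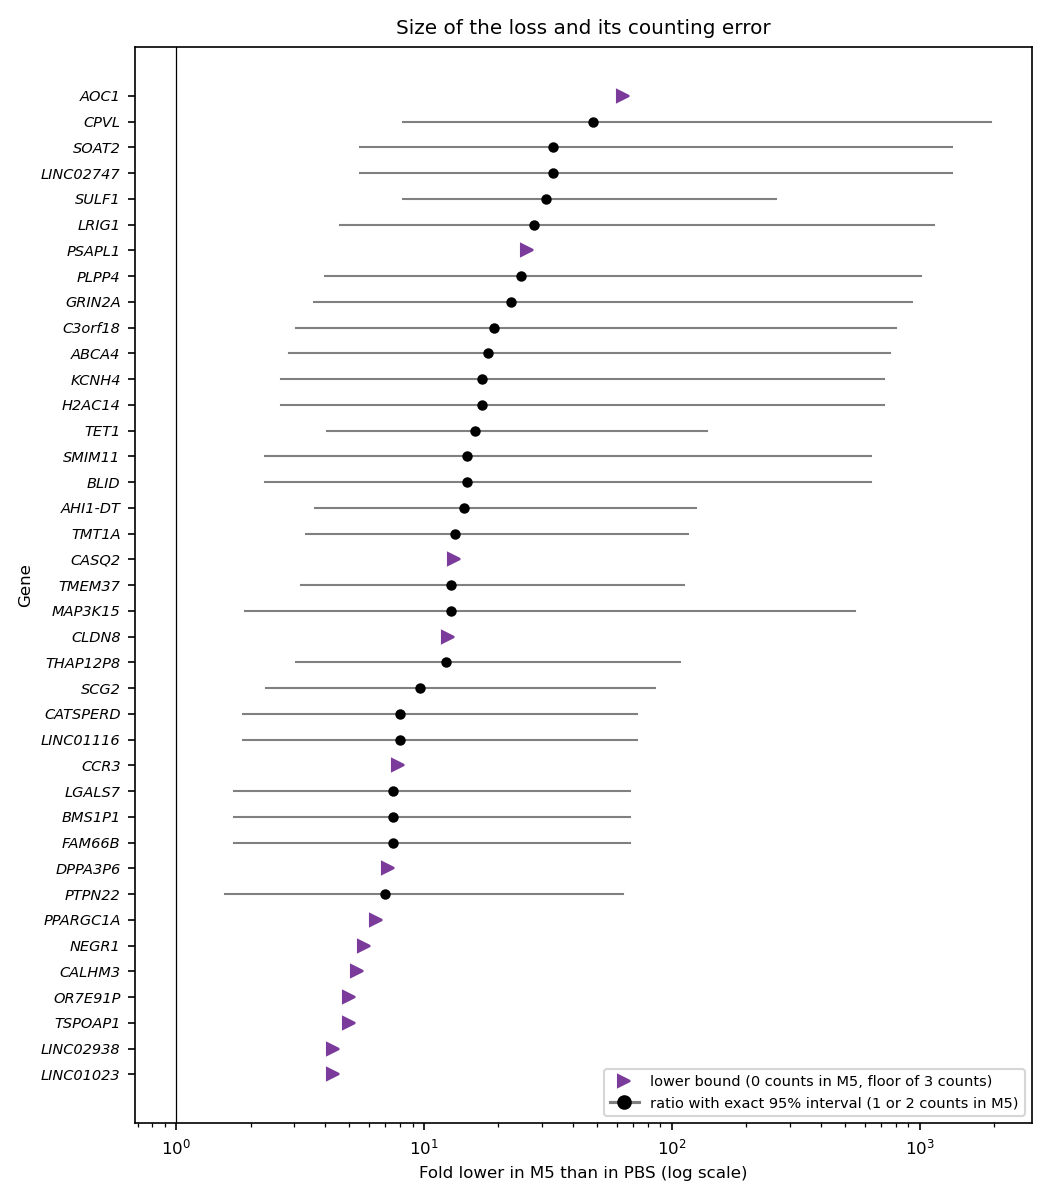
Fold by which each gene was lower in M5 than in PBS (x axis, log scale). Triangles are lower bounds for genes at 0 counts in M5, with the PBS counts taken as exact. Points and lines are ratios with their exact 95% counting intervals. AOC1 has the highest bound at 63.5-fold, and the intervals of genes with 1 or 2 counts in M5 reach from 1.58 to 1944.

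Near the limits of the rule the set had many neighbours. Inside, 10 genes had a PBS library at exactly 6 counts and 13 had an M5 sum of exactly 2. Outside, 12 genes met the M5 limit but had 5 counts in their lower PBS library, such as MAOB, monoamine oxidase B, with 0 and 0 in M5 and 5 and 5 in PBS. Another 14 met the PBS limit with an M5 sum of 3, such as MME, the peptidase neprilysin, with 1 and 2 in M5 and 13 and 8 in PBS, and MYB, a transcription factor, with 0 and 3 in M5 and 15 and 10 in PBS. MAOB, MME and MYB were chosen as examples after their values were seen.

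Genes around the members and related to them were tested with edgeR's quasi-likelihood test, with Benjamini-Hochberg adjustment and a threshold of 0.05. The fit covered all 18455 genes with at least 10 counts over the 4 libraries, the 39 members among them, whose own tests are not used. It called 3077 genes (16.7%) lower and 3708 (20.1%) higher in M5. Without M5 replicate 1 it called 1638 lower and 2410 higher, and without M5 replicate 2 it called 1723 lower and 2466 higher. With library totals in place of TMM scaling the split was 5145 lower and 2552 higher, and with limma on log2(FPKM + 1) it was 4055 lower and 2125 higher. By at least 2-fold, 836 (4.53%) were lower and 1212 (6.57%) higher. Across all tested genes the median change was -0.01 (log2) with TMM and -0.19 with totals. Values below use TMM.

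The 38 members with a position in GENCODE 29 lay on 17 chromosomes, and the closest pair, PTPN22 and CASQ2 on chromosome 1, stood 1.83 Mb apart. The nearest tested genes on either side of them, 76 in all, leaned lower in M5. Distance was not limited, and ARFGEF1-DT, for example, lay 2122 kb from SULF1. Of these neighbours 26 (34.2%) were called lower, against 16.7% of all tested genes, and 8 (10.5%) higher, against 20.1%, with a median of -0.32 against -0.01 (log2). By at least 2-fold, 6 of 76 were lower, against 4.53% of all tested genes, and 4 of 76 higher, against 6.57%. Among the 64 that overlap no member, 21 (32.8%) were lower. With library totals 33 of 76 (43.4%) were lower, against 27.9% of all tested genes. Without M5 replicate 1 or 2 the count was 12 each time (15.8%), against 8.88% and 9.34% of all tested genes, and without PBS replicate 2 it was 16 (21.1%), against 13.6%. Neighbours were not tested as a set.

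CLDN17, the claudin gene next to CLDN8 on chromosome 21 (30165564 to 30166756, 47.3 kb away), had 0 and 0 counts in M5 and 4 and 8 in PBS. It was at least 4.28-fold lower in M5 (edgeR, adjusted p = 0.0249). Without M5 replicate 1, M5 replicate 2 or PBS replicate 2 its edgeR adjusted p was 0.0970, 0.0985 or 0.113, and it did not pass. Over the alternatives that gave one, edgeR and limma adjusted p-values ran between 0.0163 and 0.113. NEURL1, a ubiquitin ligase gene 14.7 kb from CALHM3, had 41 and 40 counts in M5 and 130 and 160 in PBS, which gave a log2 difference of -1.93 (SE 0.22; edgeR, adjusted p = 1.82e-05). NOS3, the endothelial nitric oxide synthase, was the next tested gene after AOC1, 129 kb away. It had 8 and 8 counts in M5 and 22 and 20 in PBS (log2 fold change -1.48, edgeR adjusted p = 0.0304). The call for NOS3 was lost without any 1 of the 4 libraries, with adjusted p from 0.0748 to 0.123. PRAG1, a pseudokinase 962 kb from FAM66B, was lower by a log2 value of -1.12. The value was -1.04 without M5 replicate 1 and -1.22 without M5 replicate 2, and did not pass in either. Some neighbours rose. SH3KBP1, an endocytic adaptor 18.7 kb from MAP3K15, had 475 and 550 counts in M5 and 156 and 144 in PBS. Its log2 difference was 1.67 (SE 0.13, edgeR adjusted p = 3.06e-07). UBASH3B, a phosphatase 539 kb from BLID, rose by a log2 value of 1.23 (SE 0.07). LINC02009, 150 kb from CCR3, had 10 and 9 counts in M5 and 1 and 1 in PBS. Its call was lost without any 1 of the 4 libraries. ANGPT2, an angiopoietin 738 kb from FAM66B, had 7 and 19 counts in M5 and 1 and 2 in PBS. Its log2 fold change of 2.91 was not called without M5 replicate 2 (2.07) or PBS replicate 1 (2.53).

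**Figure D5:**
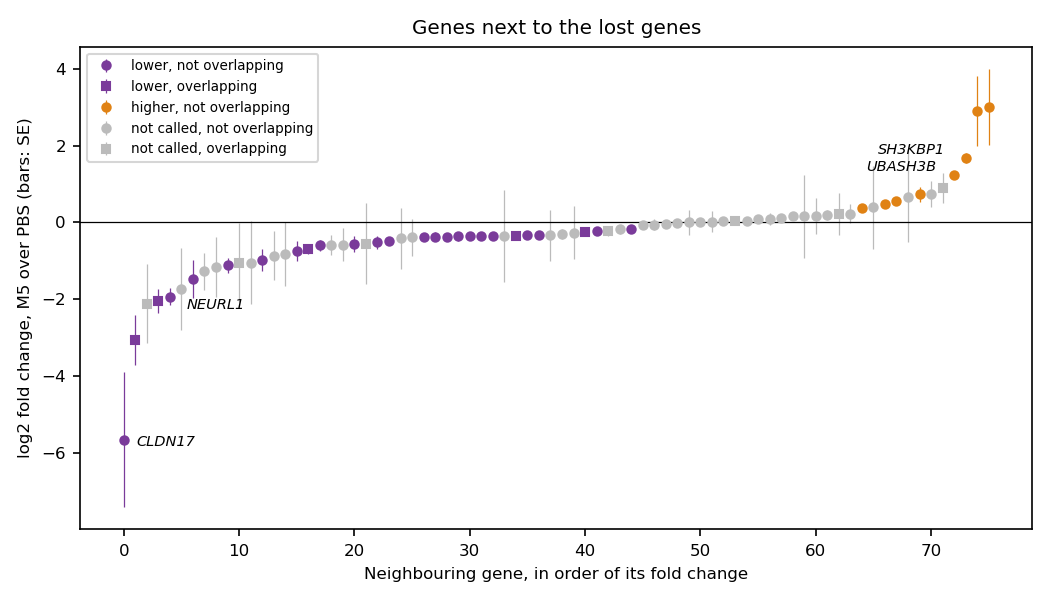
The log2 fold change, M5 over PBS, of each of 76 tested genes next to the lost genes, in ascending order, with its SE as bars. Next means the nearest tested gene on a side, at any distance. Purple marks 26 genes called lower, orange 8 called higher and grey those not called, and squares mark genes that overlap a lost gene.

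Overlap matters here because the library kit does not mark strand, so reads of overlapping genes cannot be told apart. Overlaps with a tested gene were found for 12 members. Of the 12 overlapping genes 5 (41.7%) were called lower, against 16.7% of all tested genes, and 0 higher by edgeR, against 20.1% (1 higher at an unadjusted p under 0.05 and 0 higher with DESeq2). The number called higher was 1 without M5 replicate 1 and without either PBS replicate, and 3 were called lower without M5 replicate 2 or PBS replicate 2. PSAPL1 lies within SORCS2, a sorting receptor gene on the other strand, which had 350 and 318 counts in M5 and 520 and 500 in PBS (log2 fold change -0.71, SE 0.11, edgeR adjusted p = 0.000201). CPVL overlaps CHN2, which encodes a GTPase-activating protein for RAC. CHN2 had 18 and 17 counts in M5 and 77 and 59 in PBS (log2 fold change -2.05, SE 0.31, edgeR adjusted p = 0.000197). LINC02938 overlaps SMIM2-AS1, with 3 and 2 counts in M5 and 17 and 24 in PBS (log2 fold change -3.07, or -2.79 with edgeR adjusted p = 0.0576 without M5 replicate 2). DPPA3P6 lies within CREBBP, a histone acetyltransferase gene with 3475 and 2967 counts in M5 and 2923 and 2979 in PBS. SORCS2 and CREBBP had 318 counts or more in each M5 library, where PSAPL1 and DPPA3P6 had 0. Whether reads of overlapping genes were counted for the members was not tested. MAP3K15 overlaps PDHA1, a pyruvate dehydrogenase subunit, with a log2 fold change of -0.25 (edgeR adjusted p = 0.00335, and 0.0506 without PBS replicate 2). SORCS2, PDHA1 and CREBBP were named after their values were seen.

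Relatives of the members, genes with the same name stem, moved in both directions. Of 96 tested relatives 23 (24.0%) were called lower, against 16.7% of all tested genes, and 19 (19.8%) higher, against 20.1%. Without M5 replicate 1 or 2 the lower count was 11 (11.5%), against 8.88% and 9.34%. KCNH3, the tested potassium channel gene that shares its stem with KCNH4, had 10 and 18 counts in M5 and 148 and 154 in PBS, which gave a log2 difference of -3.52 (SE 0.28; edgeR, adjusted p = 5.73e-07). ABCA1, the cholesterol exporter, had 1005 and 1034 counts in M5 and 10 and 26 in PBS, which gave a log2 difference of 5.72 (SE 0.20; edgeR, adjusted p = 1.74e-10) that was 5.19 without PBS replicate 1 and 6.55 without PBS replicate 2. PTPN11P3, a pseudogene, had 103 and 99 counts in M5 and 0 in PBS, at least 62.9-fold higher. In the claudin family CLDN12 and CLDN1 rose by log2 values of 1.57 and 1.10, CLDN17 was the only claudin gene called lower in this fit, and 11 of 14 tested claudin genes were not called. PLPP2, a relative of PLPP4, fell by 1.26 on the log2 scale (SE 0.12), and ABCA12, the lipid carrier of the skin barrier, rose by 1.71 (SE 0.19).

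Some close paralogs of members, chosen after their values were seen, kept most of their reads in M5 or rose. Other relatives did not, such as KCNH3 and PLPP2 above, and LGALS9 with 27 and 49 counts in M5 and 98 and 76 in PBS. TET2, which oxidises the same methylated base, kept 388 and 396 counts in M5, against 492 and 520 in PBS (log2 fold change -0.47, SE 0.10, edgeR adjusted p = 0.00223). Its relative TET3 had a value of -0.32 (edgeR adjusted p = 0.00858), which did not pass without M5 replicate 2 (-0.20, edgeR adjusted p = 0.113). SULF2, the partner sulfatase of SULF1, had 4333 and 3952 counts in M5 and 4630 and 5020 in PBS (log2 fold change -0.32, SE 0.07, edgeR adjusted p = 0.00300, and 0.0807 without M5 replicate 2). PPARGC1B, the sister coactivator of PPARGC1A, had 620 and 552 in M5 and 750 and 751 in PBS (log2 fold change -0.45, SE 0.09, edgeR adjusted p = 0.00185). LRIG2 and LRIG3 had log2 fold changes of -0.16 (SE 0.10) and -0.03 (SE 0.09) that did not pass, though LRIG2 passed with library totals (-0.34). SOAT1, the widely expressed partner of SOAT2, rose by 0.99 (SE 0.06, edgeR adjusted p = 4.24e-08), with 2208 and 2334 counts in M5 and 1093 and 1040 in PBS. In PBS the members of these families had few reads, while TET2, TET3, SULF2, PPARGC1B, LRIG2, LRIG3 and SOAT1 had 405 to 5020 counts a library. Rows with few PBS reads met the M5 limit more often, and the paralogs were chosen after their values were seen. The contrast thus follows from the choice of genes and is no finding about the families.

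Pathways were read from lists of gene names, and no member was on any list. The lists here and in the next paragraph were chosen with earlier results of these data known. Their shares are thus descriptive, and the lists were not tested as sets. In a cornified envelope and late differentiation list, 7 of 15 tested genes (46.7%) fell, against 16.7% of all tested genes, and 2 (13.3%) rose, against 20.1%. The median was -0.51 (log2). The median was -0.56 without M5 replicate 1 and -0.48 without M5 replicate 2. Fewer of the list passed as lower in either fit, as fewer did among all tested genes. DESeq2 called 4 lower (26.7%) and 2 higher (13.3%), against 12.4% and 17.0% of all tested genes. With library totals 7 fell (46.7%), against 27.9%, and 0 rose, against 13.8%. FLG, the barrier protein filaggrin, had 373 and 267 counts in M5 and 3051 and 3413 in PBS, which gave a log2 difference of -3.43 (SE 0.12; edgeR, adjusted p = 1.83e-10). CALML5, a calmodulin-like protein of differentiated epidermis, had 2 and 2 counts in M5 and 18 and 15 in PBS, and its call was lost without M5 replicate 1 or 2 (edgeR adjusted p = 0.0520 and 0.0527). Of 9 Hedgehog signalling genes 4 (44.4%) fell, against 16.7% of all tested genes, and 0 rose, against 20.1%, by edgeR (0 also at an unadjusted p under 0.05 and with DESeq2), with a median of -0.65. The receptor PTCH1 fell by 1.03 on the log2 scale (SE 0.09) and the transcription factor GLI3 by 1.30 (SE 0.08), while GLI2, at -1.76, did not pass without M5 replicate 1 (-1.18). Of 21 WNT target and receptor genes 7 (33.3%) fell, against 16.7%, and 2 (9.52%) rose, against 20.1%. Fewer of them passed as lower without M5 replicate 1 or 2, as fewer did among all tested genes. The median, -0.14 with all libraries, was -0.44 without M5 replicate 1 and -0.03 without M5 replicate 2. APCDD1, a membrane inhibitor of WNT, had 16 and 18 counts in M5 and 332 and 316 in PBS, which gave a log2 difference of -4.34 (SE 0.20; edgeR, adjusted p = 3.22e-09), and LGR6, a stem cell receptor of skin, had 33 and 18 in M5 and 170 and 152 in PBS.

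With all 4 libraries and TMM, the other lists are read against the same shares of all tested genes, 20.1% higher and 16.7% lower. With library totals those shares were 13.8% higher and 27.9% lower. Both shares were also lower without any 1 of the 4 libraries, so counts from those fits have a lower background. Of 19 potassium and calcium channel genes 7 (36.8%) rose and 2 (10.5%) fell, or 5 and 2 with library totals, led by the inward rectifier KCNJ2 at 3.43 (SE 0.35). Of 12 neuronal and synaptic genes 4 (33.3%) rose and 2 (16.7%) fell, and 1 fell without M5 replicate 1 or without M5 replicate 2. Among them were TUBB3, a neuronal tubulin, at 2.26, and NEFL, a neurofilament, at -2.69. Of 10 contractile and muscle genes 3 rose (30%) and 0 fell by edgeR (0 at an unadjusted p under 0.05, 0 with DESeq2, 2 with library totals and 1 without PBS replicate 1), with TAGLN, transgelin, at 1.91. Of 18 cytochrome P450 genes 7 (38.9%) fell and 4 (22.2%) rose, and without M5 replicate 2 the number that fell was 3. CYP27B1, which activates vitamin D, rose by 3.14 (SE 0.06), and CYP26A1, which breaks down retinoic acid, had 5 and 0 counts in M5 and 33 and 18 in PBS. The log2 value of CYP26A1, -3.38, did not pass without M5 replicate 2 (-2.39) and was -7.73 without M5 replicate 1, where it stands against 0 counts. Of 18 BMP and TGF-beta genes 7 (38.9%) rose and 6 (33.3%) fell, or 5 and 6 with library totals, with INHBA, an activin subunit, at 3.36 (SE 0.06) and SMAD6, an inhibitor of BMP signalling, at -2.99 (SE 0.13).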

How the data were processed

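Polyadenylated RNA was sequenced from 4 HaCaT libraries, 2 treated with M5 and 2 with PBS. Each deposited file held a read count and an FPKM value per gene, per the file headers. HISAT2, HTSeq 0.13.5 and the build GRCh38 appear in the submitters' processing notes with no role. Strand setting and annotation release were not given in the sources used here. Dividing count by the authors' FPKM and the file total left gene lengths that were whole to 3.06e-08 bp. Members and lists were chosen with earlier results of these data known. Groups follow the sample titles.

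Genes with at least 10 counts over the 4 libraries were tested with edgeR 4.0.16 (R 4.3.3), TMM scaling, two-sided. A filter of mean FPKM of at least 1 would keep 0 of the 39 genes. CPM use TMM-scaled totals, and an SE is the log2 fold change over the square root of F. Folds use a floor of 3 counts over both libraries of a group, with the counts of the other group taken as exact, or exact (Clopper-Pearson) 95% intervals. Positions come from GENCODE 29, which holds 93.2% of the identifiers, and promoters from RefSeq. The naming rule gives full values for the 20 members highest in PBS; counts of the other 19 are given as well. Named neighbours and relatives are the called genes with the largest changes, up to 10 each, and up to 3 per list, and some genes under these rules are not named. Generic name stems were left out of the relatives. The edgeR step was tested on simulated data. Alternatives were DESeq2 1.42.0, limma 3.58.1 on log2(FPKM + 1), other scalings and filters, a replicate block and leaving out each library; library totals for the folds were added after seeing the data.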

Additional observations from a re-analysis of the deposited data

How the results depend on the processing

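The members rest on 6 to 89 counts per PBS library, so their number moved with the limits: it was 15 with a PBS minimum of 10, 13 with an M5 sum of 0 and 109 with an M5 sum of at most 5, against 39 as reported. Requiring the minimum in only 1 PBS library gave 95 to 99. Genes called lower were 5145 with library totals and 1638 to 2519 without 1 library, and genes called higher were 2125 with limma and 2410 to 3265 without 1 library. Neighbours called lower were 12 to 18, and called higher 5 to 8, without 1 library. With limma 5 of 76 neighbours (6.58%) were higher, against 11.5% of all tested genes. When mean FPKM had to reach 1, fewer neighbours were tested. Of those 41, 5 (12.2%) were higher, against 28.8% of all genes tested under that filter. Relatives called lower were 11 to 19, and called higher 13 to 17, without 1 library, and 12 were higher with limma. The value for LRIG3, which was not called, turned to 0.0212 without M5 replicate 1 and to 0.0178 without PBS replicate 1, and ran from -0.0963 to 0.0212 without 1 library. No other named gene turned direction under these alternatives, and 23 of 59 named genes lost or failed to hold a call under at least 1 of them. CPVL is at 0 in M5 without M5 replicate 2, where its value is a bound of at least 7.84-fold, and every bound for a gene at 0 falls when 1 M5 library is left out, since the floor then covers fewer reads. The labels do not say that replicate numbers pair the samples, and deviations of the libraries numbered 1 had a correlation of -0.01 across 10935 genes, which are not independent replicates. With the replicate number as a block, 3335 genes were lower and 3921 higher, 27 neighbours lower and 9 higher, and 24 relatives lower and 19 higher.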
